A study of Mus musculus with 9 samples.

Results

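*Apobec3* and 6 further genes with a role in the control of retroviruses were followed through the bone marrow of NZB, NZW, and NZBWF1 mice. The 7 genes (*Apobec3*, *Apobec1*, *Fv1*, *Xpr1*, *Slc7a1*, *Samhd1*, and *Trex1*) were taken by symbol from the 31053 genes of the count table, and each symbol matched 1 gene. NZB (New Zealand Black) and NZW (New Zealand White) are inbred strains, and NZBWF1 is their first-generation hybrid, a mouse model of lupus. Femur marrow of 3 female mice per strain was sequenced at 9 to 10 weeks of age with the 10x 3′ method, 1 library per mouse, and no treatment is given for any of them. The strains are whole-genome backgrounds, so a difference between them cannot be assigned to 1 locus. All 9 mice were bought from The Jackson Laboratory in the same delivery, so the replicates measure the spread between animals of that delivery.

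Mouse genomes carry endogenous retroviruses, and New Zealand strains are known for high levels of retroviral envelope antigen. Host cells limit such elements at several steps. Receptors on the cell surface decide which envelopes can bring a particle in, capsid-binding factors stop incoming cores, deaminases and a nucleotide hydrolase act on reverse transcription, and nucleases remove DNA left in the cytosol. *Apobec3* encodes a cytidine deaminase that is packaged into retroviral particles and is known as the gene behind the *Rfv3* trait of recovery from Friend virus. *Apobec1* encodes the deaminase that edits the messenger RNA of apolipoprotein B. *Fv1* derives from an endogenous retroviral capsid gene and restricts murine leukemia viruses. *Xpr1*, a phosphate exporter, and *Slc7a1*, a transporter of cationic amino acids, are the receptors for xenotropic/polytropic and ecotropic murine leukemia viruses. *Samhd1* hydrolyses deoxynucleotides, and *Trex1* is a 3′ to 5′ DNA exonuclease.

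*Apobec3* lies on the plus strand of chromosome 15 (GRCm38/mm10, chr15:79891659-79915906, GENCODE vM21), where it overlaps *D730005E14Rik* on the same strand and the end of *Cbx7* on the other. As the member called between the parental strains in 9 of the 9 classes tested, it is shown here by sequence: the 250 bases before each of its annotated RefSeq starts (build GRCm38.p6) are given in lower case. Capitals mark a match to TTTCNNTTTC or its reverse complement GAAANNGAAA, the core letters of the interferon-stimulated response element. The sequence is that of the reference strain, and neither NZB nor NZW sequence was used here. The reads of all strains were likewise counted against the reference build mm10. Whether strain sequence or the same-strand overlap affects the *Apobec3* counts was not tested.
Apobec3, upstream of the first start, chr15:79892158-79892407, plus strand: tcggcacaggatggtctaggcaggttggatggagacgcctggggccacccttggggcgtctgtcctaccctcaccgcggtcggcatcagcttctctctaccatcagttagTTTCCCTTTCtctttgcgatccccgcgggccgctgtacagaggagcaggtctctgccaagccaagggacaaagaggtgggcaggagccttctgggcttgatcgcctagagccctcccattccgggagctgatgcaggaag
Apobec3, upstream of the second start, chr15:79894773-79895022, plus strand: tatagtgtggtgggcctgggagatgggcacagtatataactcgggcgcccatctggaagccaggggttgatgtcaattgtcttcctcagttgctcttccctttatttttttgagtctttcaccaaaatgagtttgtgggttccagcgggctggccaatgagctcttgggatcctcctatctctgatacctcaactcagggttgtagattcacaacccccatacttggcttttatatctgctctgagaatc
The match begins 140 bases before the first RefSeq start. Both windows, and so the match, lie inside the GENCODE span of the gene given above, which begins before them. Of the 10 such windows of the 7 genes, this was the 1 window with a match, and 978 of all 32851 windows (2.98%) held one.

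The libraries held 9903578 to 22522507 UMIs (unique molecular identifiers, each standing for 1 captured transcript), and 37593 cells were analysed. Cell classes were gated by marker transcripts alone and are therefore named with "-like". The defining markers of the classes tested were present, except that *Chil3* of the neutrophil-like class was at 0 and *Ahsp* of the erythroid-like class was not in the table. NZB mice had 204 to 271 B-lineage-like cells each, against 776 to 1686 in NZBWF1 and 1098 to 1318 in NZW, so the NZB values of that class rest on fewer cells. Of the members, *Samhd1* had 21479 UMIs, *Apobec3* 12419, *Xpr1* 3814, *Apobec1* 3266, *Slc7a1* 2428, *Fv1* 47, and *Trex1* 0. Levels are given in CPM, the UMIs of a gene per 1000000 UMIs of the cells of a class summed per mouse, so that fewer cells with a transcript and fewer transcripts per cell cannot be told apart. Genes were called at an adjusted p under 0.05 of the edgeR quasi-likelihood test, adjusted over all genes tested in a class, and log2 fold changes are given with their SE.

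The mean level of *Apobec3* was highest in NZB, intermediate in NZBWF1, and lowest in NZW in each of the 9 classes tested. In plasmacytoid dendritic-like cells, the class of high type I interferon output, the 3 NZB mice had 751, 673, and 765 CPM. The NZBWF1 mice had 400.0, 343, and 407 CPM, and the NZW mice 45.0, 51.6, and 54.7 CPM. These NZW values rest on 30 *Apobec3* UMIs in all, from 81 to 121 cells per mouse, against 1244 UMIs from 269 to 502 cells per mouse in NZB. The strains did not overlap, and every NZB mouse was above every NZW mouse for 9.15% of the genes of this class. For 7.27% every NZB mouse was above every NZBWF1 mouse, and for 6.86% every NZBWF1 mouse was above every NZW mouse. The fitted log2 fold change of NZB over NZW was 3.87 ± 0.19, with an edgeR adjusted p of 1.32e-33, in a class in which 6.57% of all genes were called. By p-value *Apobec3* was in place 7 of the 6327 genes tested there.

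In B-lineage-like cells *Apobec3* was at 388, 431, and 395 CPM in NZB. The NZBWF1 mice followed with 284, 208, and 231 CPM, and the NZW mice with 34.1, 40.4, and 34.9 CPM. Here too the 3 strains were separate, and 7.79% of the genes had every NZB mouse above every NZW mouse. Every NZB mouse was above every NZBWF1 mouse for 4.2% of the genes, and every NZBWF1 mouse above every NZW mouse for 8.53%. NZB exceeded NZW by 3.53 ± 0.14 (edgeR, adjusted p = 1.88e-15), the place by p-value was 3 of 9788 genes, and 2.87% of the genes were called.

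The other lymphoid classes were smaller. NK-like cells had 293, 389, and 502 CPM in NZB, 266, 213, and 197 CPM in NZBWF1, and 127, 139, and 123 CPM in NZW. Despite the wide range of the NZB mice, no NZB value fell among those of the other strains, where 9.11% of the genes had every NZB mouse above every NZW mouse and 5.23% above every NZBWF1 mouse. The difference between the parents was 1.59 ± 0.28 on the log2 scale (edgeR, adjusted p = 0.00016), with 2.79% of all genes called. With at least 2000 UMIs and 1000 genes per cell it was 2.18 and was not called (edgeR, adjusted p = 0.10). T-like cells had 268, 179.7, and 407 CPM in NZB, 288, 141, and 155 CPM in NZBWF1, and 39.2, 82.2, and 53.1 CPM in NZW. The NZB and NZBWF1 mice overlapped in this class, whereas NZW remained below both, and 3.79% of the genes had every NZB and 4.82% every NZBWF1 mouse above every NZW mouse. The parental difference was 2.46 ± 0.50 (edgeR, adjusted p = 0.00085), with 2.3% of all genes called. The NZW values of this class rest on 8 *Apobec3* UMIs in all.

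Myeloid, erythroid, and stem and early progenitor classes also had NZB above NZW. Monocyte-like cells had 154, 233, and 191 CPM in NZB, 95.6, 85.4, and 98.6 CPM in NZBWF1, and 39.96, 42.3, and 51.3 CPM in NZW. Granulocyte-monocyte precursor-like cells had 118, 137, and 129 CPM in NZB, 85.1, 72.2, and 65.9 CPM in NZBWF1, and 21.7, 23.6, and 34.7 CPM in NZW. Every NZB mouse was above every NZW mouse in both, which held for 16.7% and 18.9% of the genes of these classes. The log2 fold changes of NZB over NZW were 2.13 ± 0.15 and 2.18 ± 0.15, where 20.4% and 12.3% of all genes were called. Erythroid-like cells had 176, 175, and 169 CPM in NZB, 151, 129, and 127 CPM in NZBWF1, and 58.4, 69.7, and 67.3 CPM in NZW. Their parental difference of 1.40 ± 0.11 was the smallest of the 9 classes tested. Neutrophil-like cells held the least *Apobec3*, with 15.8, 22.4, and 18.9 CPM in NZB, 14.9, 14.8, and 14.4 CPM in NZBWF1, and 7.58, 7.14, and 5.93 CPM in NZW. The order of the strains was kept at this low level, with a log2 fold change of NZB over NZW of 1.65 ± 0.20. The RNA expected from free droplet content amounted to 3.01% to 5.29% of the *Apobec3* UMIs of this class in the 3 strains, and to at most 1.02% in the other classes tested. This estimate assumed 12 to 17 free UMIs per droplet, a median over barcodes with under 100 UMIs, which kept it low by construction. The true free content of a droplet was not measured, so larger shares are not excluded. Stem and early progenitor-like cells had 202, 298, and 292 CPM in NZB, 123 and 155 CPM in 2 NZBWF1 mice, and 49.5, 84.3, and 43.8 CPM in NZW. The parental difference was 2.09 ± 0.36, with 2.43% of all genes called, and NZBWF1 mouse 1 is absent from that fit because it had 8 such cells. The NZW values of this class rest on 16 *Apobec3* UMIs in all.

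**Figure D1:**
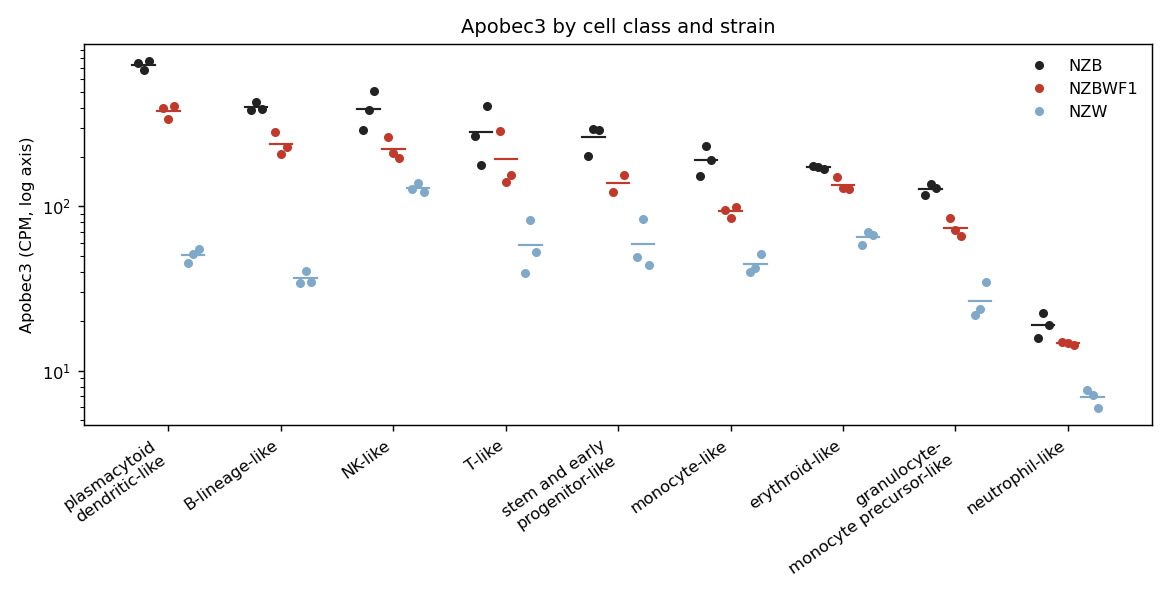
*Apobec3* in CPM (log axis) for each mouse (points) and the mean of a strain (short lines) in 9 cell classes. NZB (black) stands above NZW (blue) in each class, with NZBWF1 (red) between them, and the gap is widest in plasmacytoid dendritic-like cells, at 730.0 against 50.4 CPM on average.

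Across these classes, *Apobec3* was called higher in NZB than in NZW in 9 of 9, with log2 fold changes of 1.40 to 3.87. At the higher limits of UMIs and genes the NK-like call was lost, as given above. In the same classes between 2.3% and 20.4% of all genes were called. In linear terms the NZB mean was 2.66 to 14.5 times the NZW mean. NZBWF1 was called higher than NZW in 6 of 9 classes, among 0.431% to 2.21% of all genes. These 6 were plasmacytoid dendritic-like (2.92 ± 0.21), B-lineage-like (2.66 ± 0.14), granulocyte-monocyte precursor-like (1.37 ± 0.16), neutrophil-like (1.08 ± 0.21), monocyte-like (1.02 ± 0.16), and erythroid-like cells (0.999 ± 0.11). The shares of all genes called there were 1.12%, 0.633%, 1.15%, 1.21%, 0.819%, and 2.21% in the same order. The neutrophil-like call was lost without NZW mouse 3 (0.96, edgeR, adjusted p = 0.091) or without NZBWF1 mouse 3 (1.08, adjusted p = 0.055). In T-like cells the value was 1.90 ± 0.50 with an adjusted p of 0.0503 (edgeR). In NK-like cells it was 0.75 ± 0.29 (adjusted p = 0.52) and in stem and early progenitor-like cells 1.14 ± 0.45 (adjusted p = 0.60), both short of the threshold. Each NZBWF1 mouse was nevertheless above each NZW mouse in all 9 classes, which held for 4.82% to 10.9% of the genes tested. NZBWF1 was called lower than NZB in 4 of 9 classes, among 0.598% to 13.4% of all genes. The values were -1.11 ± 0.14 in monocyte-like, -0.95 ± 0.11 in plasmacytoid dendritic-like, -0.87 ± 0.13 in B-lineage-like, and -0.80 ± 0.13 in granulocyte-monocyte precursor-like cells, where 13.4%, 2.51%, 0.909%, and 3.64% of all genes were called. Not called were erythroid-like (-0.40, among 1.53% of all genes), neutrophil-like (-0.57, 3.28%), NK-like (-0.84, 0.598%), stem and early progenitor-like (-0.95, 0.701%), and T-like cells (-0.56, 0.804%). With single mice left out, the T-like value of NZBWF1 against NZB ran from -1.07 to -0.27. The 3 comparisons share their mice and are not independent of each other.

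The position of the hybrid relative to the midpoint of its parents depended on the scale. Relative to the parental mean on the log scale, *Apobec3* was higher in NZBWF1 in 2 of 9 classes, among 0.216% to 1.29% of all genes called. The excess was 0.90 ± 0.11 in B-lineage-like cells (edgeR, adjusted p = 1.60e-05) and 0.99 ± 0.14 in plasmacytoid dendritic-like cells (edgeR, adjusted p = 4.69e-07). The remaining 7 classes ranged from -0.05 in NK-like and monocyte-like cells to 0.67 in T-like cells, and none was called, with 0.349% of all genes called in NK-like and 0.317% in granulocyte-monocyte precursor-like cells. The T-like value ran from 0.17 to 0.88 with single mice left out and was lowest without NZBWF1 mouse 1. Against the arithmetic mean of the parental CPM, a comparison added after the data were seen and made without a test, the ratio was 1.09 in B-lineage-like and 0.98 in plasmacytoid dendritic-like cells. Over the 9 classes this ratio ran from 0.79 in monocyte-like to 1.14 in erythroid-like cells, with a median of 0.98. The hybrid mean was 48.4% to 78.5% of the NZB mean. In plasmacytoid dendritic-like cells the sign turned between the scales, with a log2 ratio of -0.026 to the arithmetic mean. At a limit of at least 2000 UMIs and 1000 genes per cell the log-scale excess in plasmacytoid dendritic-like cells was 0.84 and was not called (edgeR, adjusted p = 0.84).

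**Figure D2:**
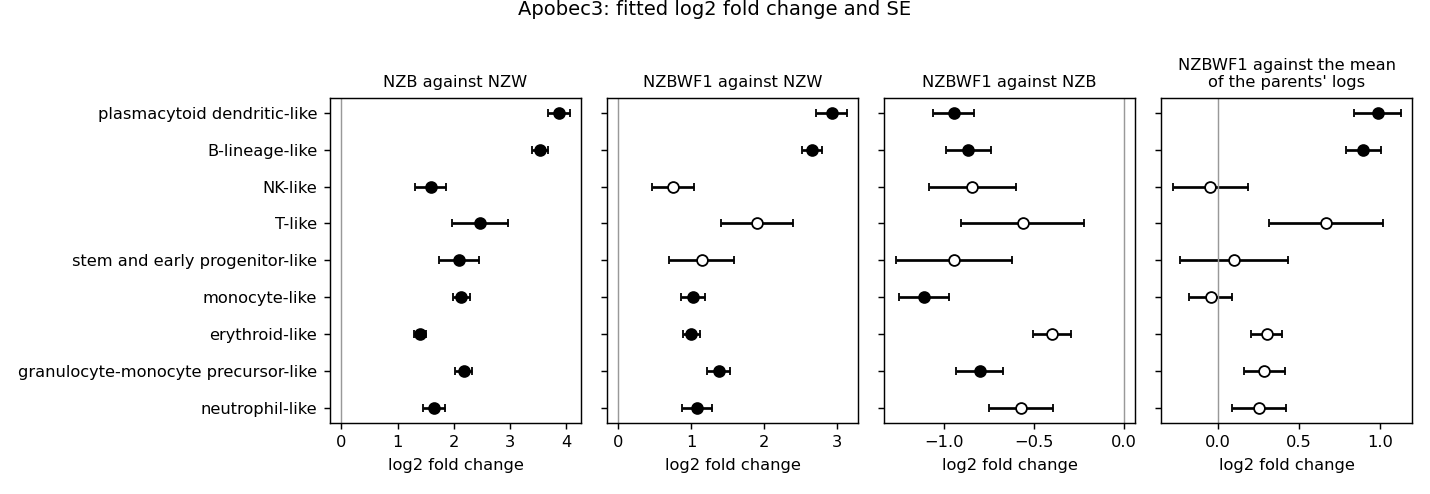
Fitted log2 fold changes of *Apobec3* (points, with the approximate SE defined in the text as bars) in 9 cell classes for the 4 comparisons, each on its own axis. Filled points are called at an adjusted p under 0.05. All 9 points are filled for NZB against NZW, 6 for NZBWF1 against NZW, 4 for NZBWF1 against NZB, and 2 for NZBWF1 against the log-scale mean of its parents.

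The order of the classes was not the same in the strains. In NZB, plasmacytoid dendritic-like cells came first at 730.0 ± 49.6 CPM (mean ± SD, n = 3 mice), without overlap with the class after them. B-lineage-like cells followed at 404.6 CPM and NK-like cells at 395 CPM, a pair whose ranges overlapped. In NZW, NK-like cells came first at 129.7 CPM, above all mice of the next class, while plasmacytoid dendritic-like cells were in place 5 of 9 and B-lineage-like cells in place 7. Neutrophil-like cells came last in each strain, with no mouse in the range of the class before them. The difference between the parents was compared between classes with the mouse as a block. Relative to B-lineage-like cells the log2 difference was smaller in erythroid-like (-2.15 ± 0.17), NK-like (-1.90 ± 0.33), neutrophil-like (-1.84 ± 0.26), monocyte-like (-1.40 ± 0.19), and granulocyte-monocyte precursor-like cells (-1.33 ± 0.20). These 5 of 9 pairs were called by edgeR, with adjusted p-values of 2.67e-21 to 0.00019, among 0.127% to 6.03% of the genes tested. Plasmacytoid dendritic-like cells differed from B-lineage-like cells by 0.39 ± 0.28 (edgeR, adjusted p = 0.74), which does not show that they were alike.

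The share of cells with at least 1 *Apobec3* UMI was compared between the parents. With every cell thinned to 1000 UMIs, 53.2% ± 6.34 of the plasmacytoid dendritic-like cells of NZB and 5.07% ± 1.42 of those of NZW had one (mean ± SD, n = 3 mice each, two-sided exact permutation p = 0.1, the smallest that 3 mice against 3 allow). Without thinning the shares were 68.3% and 8.89%. In B-lineage-like cells the thinned shares were 35.3% ± 0.90 and 3.49% ± 0.59 (exact permutation, n = 3 mice each, p = 0.1). Neutrophil-like cells, which carried the least, had a UMI in 2.10% ± 0.21 of the NZB cells and 0.646% ± 0.28 of the NZW cells. Without thinning these were 4.80% and 1.82%. In erythroid-like cells the shares were 18.9% and 7.82% with thinning and 75.6% and 45.8% without. In T-like cells the thinned shares of 20.1% ± 16.4 and 4.93% ± 3.27 had an exact permutation p of 0.2 (n = 3 mice each).

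B-lineage-like cells were divided by stage markers into pro-B-like (*Dntt*), dividing pre-B-like, resting pre-B-like (*Rag1* or *Rag2*), and mature B-like cells, and 2803 of the 7648 cells (36.7%) fell in no stage and were left out of this division. *Apobec3* was called higher in NZB than in NZW in each of the 3 stages that could be tested. Mature B-like cells had 675, 781, and 523 CPM in NZB, 487, 229, and 355 CPM in NZBWF1, and 29.8, 30.3, and 27.4 CPM in NZW. All NZB values were above all NZBWF1 values, as for 4.86% of the genes of this stage, and above all NZW values, as for 5.83%. NZB exceeded NZW by 4.45 ± 0.30 (edgeR, adjusted p = 1.62e-46), among 2.27% of the genes called. Pro-B-like cells had 354, 366, and 400.3 CPM in NZB, 316, 261, and 224 CPM in NZBWF1, and 38.4, 79.6, and 44.7 CPM in NZW. The fold change on the log2 scale was 2.77 ± 0.29 (edgeR, adjusted p = 5.60e-11), with 1.63% of the genes called. Dividing pre-B-like cells had 171, 452, and 311 CPM in NZB, 180.4, 192, and 226 CPM in NZBWF1, and 34.4, 35.1, and 27.4 CPM in NZW. NZB mouse 1 was below all NZBWF1 mice, and NZW was below both strains, while 9.16% of the genes had every NZB and 8.61% every NZBWF1 mouse above every NZW mouse. Here the parental difference was 3.32 ± 0.26 (edgeR, adjusted p = 6.02e-08), with 1.8% of the genes called. Relative to the parental mean on the log scale, the hybrid excess was 1.35 ± 0.20 in mature B-like cells (edgeR, adjusted p = 3.81e-08, among 0.386% of all genes). In pro-B-like cells it was 0.82 ± 0.19 (edgeR, adjusted p = 0.035, among 0.192%). The 0.91 ± 0.18 of dividing pre-B-like cells missed the threshold (edgeR, adjusted p = 0.056, among 0.137%). Against the arithmetic mean of the parental CPM, without a test, the ratio was 1.04 in mature B-like cells, with single mice at 0.66 to 1.41. It was 1.25 (1.05 to 1.48) in pro-B-like and 1.16 (1.05 to 1.31) in dividing pre-B-like cells. Between NZBWF1 and NZB the difference was called in mature B-like cells (-0.87 ± 0.22, edgeR, adjusted p = 0.010, among 1.27% of all genes) and not in dividing pre-B-like cells (-0.75 ± 0.22, adjusted p = 0.26, among 0.348%) or pro-B-like cells (-0.57 ± 0.23, adjusted p = 0.45, among 0.481%). These stages hold few NZB cells, with 14 to 54 mature B-like and 18 to 41 pro-B-like cells per mouse. Whether the parental difference differed between stages was not tested. From pro-B-like to dividing pre-B-like cells *Apobec3* was lower in 7 of 9 mice (log2 difference -0.48 ± 0.49 SD, two-sided exact sign-flip permutation p = 0.023, adjusted 0.059 over 15 such tests). By the same permutation over 7 mice, the steps to resting pre-B-like and then to mature B-like cells had p-values of 0.42 and 0.34.

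**Figure D3:**
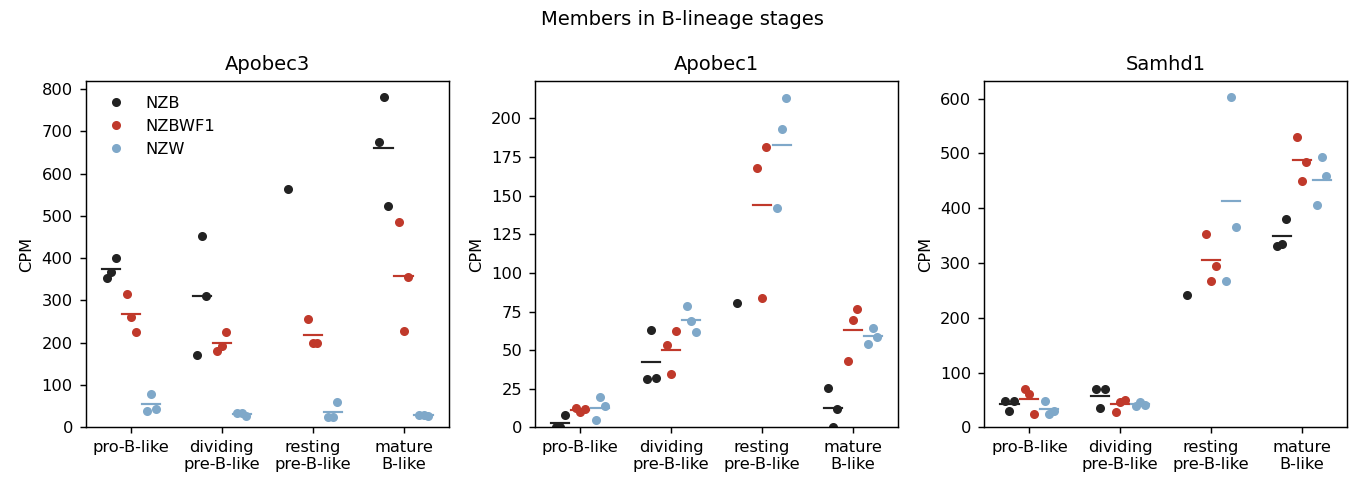
*Apobec3*, *Apobec1*, and *Samhd1* in CPM for each mouse (points) and strain mean (lines, where there is more than 1 mouse) in 4 B-lineage stages. *Apobec3* of the NZW mice lies below that of the NZB and NZBWF1 mice in pro-B-like, dividing pre-B-like, and mature B-like cells, resting pre-B-like cells have 1 NZB mouse, *Apobec1* is highest in resting pre-B-like cells, with a mean of 152 CPM, and *Samhd1* is low in pro-B-like and dividing pre-B-like cells.

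*Apobec1* (chr6:122577792-122602444, minus strand) had its highest levels in monocyte-like and B-lineage-like cells. Over the 9 mice, monocyte-like cells ranged from 61.4 to 122 CPM with a median of 101 CPM, and B-lineage-like cells from 23.5 to 73.5 CPM with a median of 64.3 CPM. The remaining classes had medians of 18.99 CPM (NK-like cells) or less, and the ranges of neighbouring classes overlapped. Monocyte-like cells had 62.7, 61.4, and 79.5 CPM in NZB, 101, 98.5, and 106 CPM in NZBWF1, and 107, 122, and 104 CPM in NZW. The NZB mice were the 3 lowest, and NZBWF1 overlapped with NZW. The share of genes with every NZB mouse below the other strains was not determined. In the opposite order, every NZB mouse was above every NZW mouse for 16.7% of the genes of this class and above every NZBWF1 mouse for 12.3%. For NZB against NZW the log2 fold change was -0.71 ± 0.14 (edgeR, adjusted p = 0.00024), and NZBWF1 was higher than NZB by 0.57 ± 0.14 (edgeR, adjusted p = 0.0062). In monocyte-like cells 20.4% and 13.4% of all genes were called in the same comparisons, so that calls were common there. With at least 2000 UMIs and 1000 genes per cell the first value shrank to -0.02 (adjusted p = 0.96) and the second to 0.05 (adjusted p = 0.94), and the second was also lost without NZB mouse 2 (0.49, adjusted p = 0.067). B-lineage-like cells showed -0.76 ± 0.31 for NZB against NZW (edgeR, adjusted p = 0.29), which became -1.36 (adjusted p = 0.013) when NZB mouse 2 was left out. In neutrophil-like cells the value had the other sign, at 0.64 ± 0.23 (adjusted p = 0.082). In plasmacytoid dendritic-like cells, where *Apobec1* was too low to be tested, it was at 14.7, 19.2, and 18.2 CPM in NZB, 17.1, 11.9, and 17.2 CPM in NZBWF1, and 5.63, 5.16, and 4.56 CPM in NZW. Each of these NZW values is 1 UMI, and 9.15% of the genes had every NZB mouse above every NZW mouse in this class, and 6.86% every NZBWF1 mouse. The parental difference in neutrophil-like cells exceeded that in B-lineage-like cells by 1.44 ± 0.31 (edgeR, adjusted p = 0.00087), a comparison in which 4.19% of the genes were called.

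Along the B-lineage stages, *Apobec1* rose and then fell. Log2 differences between stages were taken after adding 1 CPM, which weighs on the size of a rise from few UMIs. *Apobec1* had 22 UMIs in the pro-B-like cells of all 9 mice, with a lowest value of 0 CPM. Its mean was 9.03 CPM in pro-B-like and 53.9 CPM in dividing pre-B-like cells, a rise in 9 of 9 mice (log2 difference 2.94 ± 1.60 SD, two-sided exact sign-flip permutation over n = 9 mice, p = 0.0039, 0.029 after Benjamini-Hochberg adjustment over 15 such tests). In the 7 mice with 10 or more resting pre-B-like cells it was 55.7 CPM in dividing and 152 CPM in resting pre-B-like cells, higher in 7 of 7 (log2 difference 1.41 ± 0.30 SD, exact permutation p = 0.016, adjusted 0.047). In mature B-like cells of the same mice it was 55.9 CPM, lower in 7 of 7 (-1.41 ± 0.56 SD, exact permutation p = 0.016, adjusted 0.047). Each of these is the smallest p its number of mice allows. The stage tests were chosen after the data were seen, and the stages of a mouse share its library. The share of all genes that moved the same way in every mouse between stages was not determined. Median UMIs per cell were 2431 in dividing and 1194 in resting pre-B-like cells.

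*Samhd1* (chr2:157097533-157135265, minus strand) was highest in monocyte-like cells, with 388 to 849 CPM over the 9 mice and a median of 712 CPM. T-like cells followed with a median of 251 CPM and plasmacytoid dendritic-like cells with 245 CPM, and erythroid-like cells were lowest with 30.5 to 46.7 CPM. Monocyte-like cells had 562, 388, and 582 CPM in NZB, 849, 736, and 763 CPM in NZBWF1, and 624, 788, and 712 CPM in NZW. NZB was again lowest on average, at -0.48 ± 0.12 against NZW (edgeR, adjusted p = 0.0046), and NZBWF1 exceeded NZB by 0.60 ± 0.12 (edgeR, adjusted p = 0.0014), among 20.4% and 13.4% of all genes called. Both calls were lost at the higher limit of UMIs and genes per cell (-0.03, adjusted p = 0.95, and 0.26, adjusted p = 0.49), and the first also without NZB mouse 2 (-0.32, adjusted p = 0.070). The lowest value was that of NZB mouse 2. In the other 8 classes *Samhd1* was not called in any comparison, with log2 fold changes of NZB against NZW between -0.72 and 0.47 over the 9 classes. Its parental difference in neutrophil-like cells (0.47 ± 0.21) exceeded that in B-lineage-like cells by 0.69 ± 0.16 (edgeR, adjusted p = 0.0020).

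*Samhd1* also differed between stages of the B lineage, again without a share over all genes beside it. Pro-B-like cells had 42.8 CPM and dividing pre-B-like cells 47.4 CPM on average, a step up in 6 of 9 mice and down in 3 (exact permutation, n = 9 mice, p = 0.47). From dividing to resting pre-B-like cells the mean went from 46.0 to 342 CPM, a rise in 7 of 7 mice by 2.85 ± 0.68 SD on the log2 scale (exact permutation p = 0.016, adjusted 0.047). Mature B-like cells of these mice had 450.4 CPM, higher in 6 of 7 (exact permutation p = 0.031, adjusted 0.059). By strain, mature B-like cells had 331, 335, and 380.5 CPM in NZB, 529, 450.5, and 485 CPM in NZBWF1, and 406, 493, and 458 CPM in NZW. No comparison between strains was called for *Samhd1* in this stage.

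**Figure D4:**
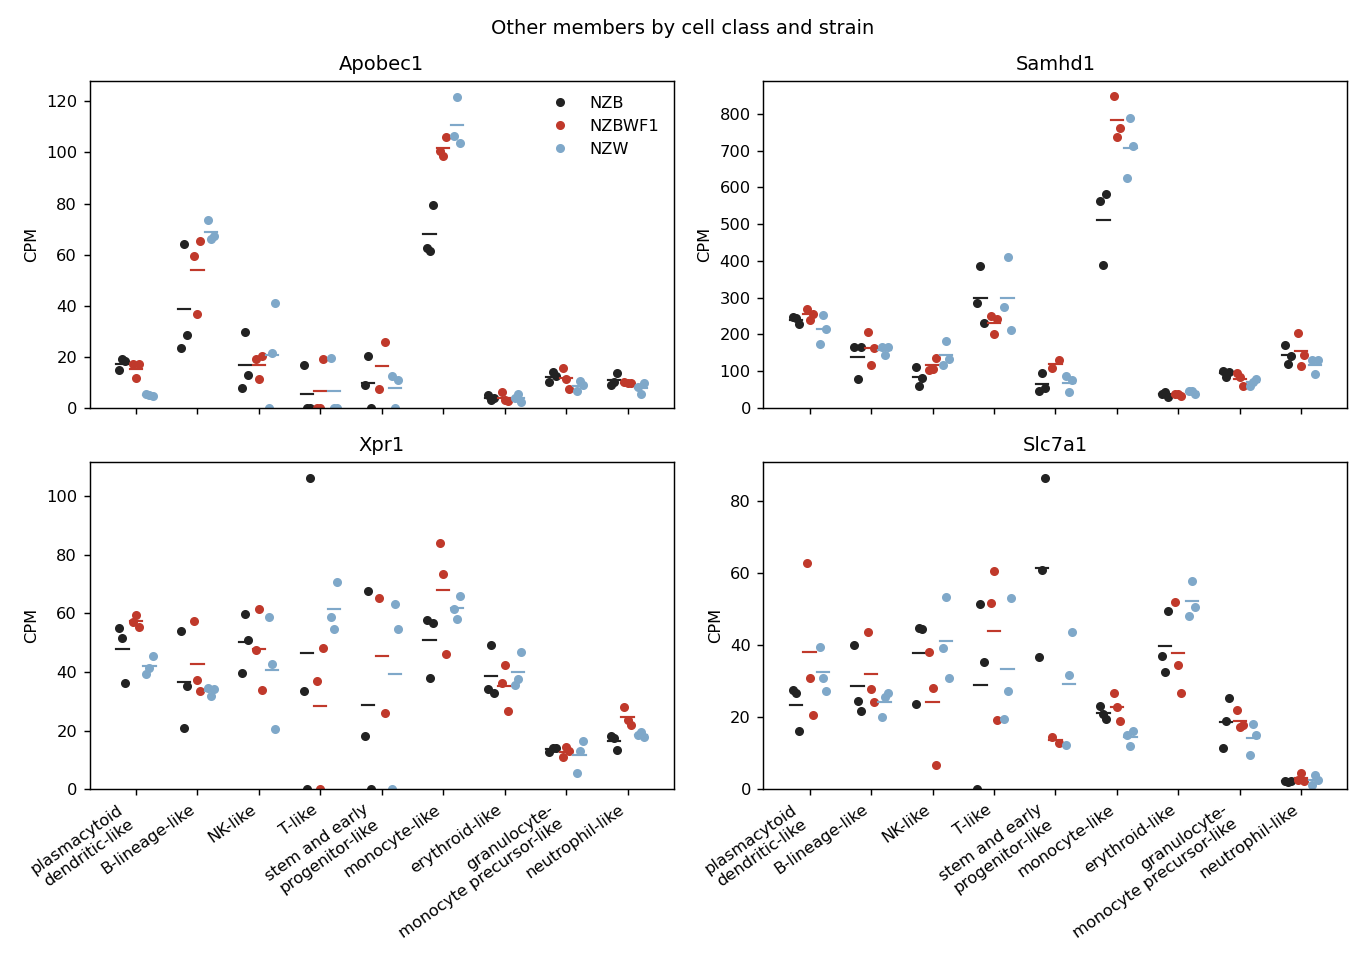
*Apobec1*, *Samhd1*, *Xpr1*, and *Slc7a1* in CPM (linear axes from 0, one scale per gene) for each mouse (points) and strain mean (lines) in 9 cell classes. Monocyte-like cells carry the highest *Samhd1* and *Apobec1*, with NZB lowest, and no difference between strains was called for *Xpr1* or *Slc7a1*.

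No strain difference was called for the receptor genes. *Xpr1* (chr1:155275701-155417415, minus strand) had its highest medians in monocyte-like (58.1 CPM, 38.1 to 83.9 over the 9 mice) and plasmacytoid dendritic-like cells (51.7 CPM) and its lowest in granulocyte-monocyte precursor-like cells (13.2 CPM). The strain values in monocyte-like cells were 57.6, 38.1, and 56.7 CPM in NZB, 83.9, 73.4, and 46.3 CPM in NZBWF1, and 61.6, 58.1, and 65.8 CPM in NZW. There NZBWF1 overlapped with both parents and NZB stood just below NZW (log2 fold change -0.34, edgeR, adjusted p = 0.22). The share of genes with every NZB mouse below every NZW mouse was not determined. Neutrophil-like cells had 18.1, 17.6, and 13.2 CPM of *Xpr1* in NZB, 28.2, 23.5, and 21.96 CPM in NZBWF1, and 18.4, 19.5, and 17.8 CPM in NZW. Every NZBWF1 mouse was above every NZW mouse there, as for 7.99% of the genes of the class. *Slc7a1* (chr5:148327410-148399904, minus strand) was at a median of 48.1 CPM in erythroid-like cells and 2.40 CPM in neutrophil-like cells, and no neutrophil-like sum reached the lowest of the class before it in this order. Erythroid-like cells had 37.1, 32.6, and 49.5 CPM of it in NZB, 52.0, 34.6, and 26.7 CPM in NZBWF1, and 48.1, 57.9, and 50.6 CPM in NZW. In monocyte-like cells *Slc7a1* had 23.0, 20.9, and 19.6 CPM in NZB, 26.8, 22.8, and 18.97 CPM in NZBWF1, and 14.99, 12.0, and 16.3 CPM in NZW. NZW was the lowest strain without overlap, in a class where 16.7% of the genes had every NZB mouse and 8.33% every NZBWF1 mouse above every NZW mouse. For NZBWF1 against NZW the log2 fold change in erythroid-like cells was -0.62 with an adjusted p of 0.059 (edgeR), the smallest of the 44 tests of the 2 genes. None of the 44 was called by edgeR, while 9 had an unadjusted p under 0.05, against 13.6% of the tests of all genes in the same classes and comparisons. For NZB against NZW, *Xpr1* ranged from -0.34 to 0.22 over 6 classes and *Slc7a1* from -0.41 to 0.55 over 5. DESeq2 on the same sums also called 0 of the 40 tests for which it gave an adjusted p. In B-lineage stages *Xpr1* went from 50.8 CPM in pro-B-like to 27.2 CPM in dividing pre-B-like cells. It was lower in 9 of 9 mice (exact permutation p = 0.0039, adjusted 0.029), and no share over all genes was determined.

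*Fv1* and *Trex1* could not be tested in any class. *Fv1* (chr4:147868979-147870358, plus strand) had 13 UMIs in all NZB cells, 29 in NZW, and 5 in NZBWF1. Per mouse these were 4, 7, and 2 UMIs in NZB, 13, 10, and 6 in NZW, and 1, 2, and 2 in NZBWF1. In CPM over all cells the NZB mice had 0.47, 0.47, and 0.18, the NZW mice 1.002, 0.65, and 0.40, and the NZBWF1 mice 0.13, 0.12, and 0.12. With so few UMIs no class passed the filter on low counts, and nothing is read from the order of the strains. *Trex1* had 0 UMIs among the 150955243 of all called barcodes. The gene (chr9:109057933-109059734, minus strand) lies within *Atrip* (chr9:109057933-109074124) on the same strand, and 100% of its 1147 exonic bases are also exonic in *Atrip*. A UMI that aligns to both cannot be assigned to either, so the 0 is no measure of *Trex1* transcription.

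Other genes of host defence against retroviruses were taken from 4 lists. Of 75 listed genes, 69 were in the table: 26 of 27 restriction and editing factors, 3 of 3 further entry transporters, 26 of 28 genes of provirus silencing, and 14 of 17 of nucleic acid sensing. For NZB against NZW, 0 of 55 measured list genes were called in B-lineage-like cells (edgeR), where 2.87% of all genes were. An unadjusted p under 0.05 was found for 8 of the 55 and for 13.5% of all genes, and their median log2 fold change was 0.06 against 0.00 over all genes. In plasmacytoid dendritic-like cells 2 of 45 were higher and 0 lower, against 6.57% of all genes. In neutrophil-like cells 7 of 51 were higher and 0 lower, against 11.7% of all genes, and in granulocyte-monocyte precursor-like cells 5 of 52 were higher and 2 lower, against 12.3%. In monocyte-like cells 5 of 57 were higher and 9 lower, against 20.4%, and in erythroid-like cells 4 of 50 in each direction, against 8.82%. *Ifitm3*, whose product holds viruses back at the membrane of endosomes, and *Bst2*, which tethers budding particles, were the 2 list genes called in 3 classes, the most of any. Neutrophil-like cells had 1828, 1869, and 1405 CPM of *Ifitm3* in NZB, 812, 659, and 764 CPM in NZBWF1, and 549, 432, and 497 CPM in NZW, and NZB exceeded NZW by 1.97 ± 0.16 (edgeR, adjusted p = 5.49e-08). It was also higher in NZB in erythroid-like (1.38 ± 0.20) and granulocyte-monocyte precursor-like cells (1.11 ± 0.13) and was at -0.01 ± 0.09 in monocyte-like cells. Also not called were B-lineage-like (-0.83 ± 0.25, edgeR, adjusted p = 0.087), plasmacytoid dendritic-like (-0.35 ± 0.44), and stem and early progenitor-like cells (0.42 ± 0.18). *Bst2* was lower in NZB in monocyte-like (-0.80 ± 0.14) and granulocyte-monocyte precursor-like cells (-0.45 ± 0.12) and higher in plasmacytoid dendritic-like cells by 0.27 ± 0.09 (edgeR, adjusted p = 0.0496).

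Over the 97 sums of a class and mouse, the genes with the pattern most like *Apobec3* were *H2-Q7* (Pearson r = 0.77 of log2(CPM + 1)), *Zfp644* (0.72), and *Ythdf2* (0.72), out of 6056 genes. Those most like *Apobec1* were *Naaa* (0.63), *Lyn* (0.62), and *Arhgap11a* (0.62). The sums share 9 libraries and differ in depth, and these values describe likeness only. By rank correlation *H2-Q7* stayed among the 3 for *Apobec3* and *Lyn* among the 3 for *Apobec1*, whereas the other genes changed.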

How the data were processed

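Femur marrow of 9 mice was measured by 10x 3′ single-cell RNA sequencing. Per the submitters' processing notes, the authors used bcl2fastq 2.20, Cell Ranger 3.1.0, and build mm10, and deposited 1 merged filtered matrix of raw UMI counts per gene and cell barcode. The number at the end of a barcode was taken as the place of its library in the deposited list of merged libraries, and 0 columns lacked a mouse. No source used here states whether the merge equalised depth.

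Of 68444 deposited barcodes, 39051 passed limits of 1000 UMIs and 500 genes as minimum and 10% mitochondrial UMIs as maximum, and 1458 likely doublets (highest scores against simulated doublets) were removed. Of the 37593 cells left, 32865 met the marker gate of exactly 1 class and 1379 of none and 3349 of several were used only in sums over all cells. The gate limits (3 to 5 markers) were set after marker counts were seen, and 326 cells share a barcode sequence with another library. Counts were summed per class and mouse (at least 10 cells) and fitted with edgeR 4.0.16 (R 4.3.3; TMM, filterByExpr, quasi-likelihood) for all strains together, with Benjamini-Hochberg adjustment within a class and comparison. Differences between classes were fitted in NZB and NZW with the mouse as a block. Data were simulated for 9788 genes at the depth of B-lineage-like cells. Of 200 genes changed by a fold of 2, 191 were recovered, with 7 others called. The changed genes were drawn only from those with higher expected counts, so the recovery of genes with low counts was not measured. DESeq2 1.42.0, other limits, gates, clusters, scalings, and omissions of 1 mouse were tried as alternatives for the strain comparisons. Python 3.11.15, NumPy 2.4.6, SciPy 1.17.1, scikit-learn 1.9.0, and leidenalg 0.10.2 were used.

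The members and lists were chosen with earlier results of these data known. The 7 members are named throughout. Of the listed genes, those called for NZB against NZW in at least 3 classes were named, and for *Apobec3* and *Apobec1* the 3 genes of highest correlation with a mean of at least 20 CPM. B-lineage stages and their tests were added after the data were seen. Checked on the 88 pairs of same-numbered mice, 21 correlations exceeded 0.1 (-0.14 to 0.31, median 0.036) and in no class did all of them, so the mouse numbers were not taken to pair the samples. In neutrophil-like cells the pairs numbered 1 or 2 were at 0.18 to 0.30 and those numbered 3 at -0.013 to 0.041. A structure shared by some same-numbered mice is therefore not excluded.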

Additional observations from a re-analysis of the deposited data

Results flagged for a closer look

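The difference between NZB and NZW itself differed between cell classes in 11 of 83 comparisons of 5 members. Each was tested by edgeR with the mouse as a block. In these pairs of classes 0.0908% to 7.43% of the genes tested were called. For *Apobec3* the log2 difference, relative to that in B-lineage-like cells, was -2.15 in erythroid-like, -1.90 in NK-like, -1.84 in neutrophil-like, -1.40 in monocyte-like, and -1.33 in granulocyte-monocyte precursor-like cells, where 1.76%, 0.93%, 4.19%, 6.03%, and 3.33% of all genes were called. Relative to neutrophil-like cells it was 2.27 in plasmacytoid dendritic-like cells, where 2.84% of all genes were called. For *Apobec1* the difference in neutrophil-like cells exceeded that in B-lineage-like cells by 1.44, and that in monocyte-like cells was below that in neutrophil-like cells (-1.36, among 7.43% of all genes called). For *Samhd1* the values were 0.69 in neutrophil-like against B-lineage-like cells, and -0.97 in monocyte-like and -0.70 in erythroid-like against neutrophil-like cells (5.55% of all genes called in the last pair). The comparisons share mice and reference classes. As given above, the monocyte-like calls of *Apobec1* and *Samhd1* between the parents were lost at the higher limits of UMIs and genes per cell. The class differences of these genes were not refitted under any alternative.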

How the results depend on the processing

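Of 380 values of *Apobec3* under the alternatives, 366 kept their direction and side of the threshold. They covered NZB against NZW, NZBWF1 against the parental mean, and class differences from B-lineage-like cells. The class differences were refitted only without the filter on low counts and with single NZB or NZW mice left out. The other alternatives were not applied to them. With at least 2000 UMIs and 1000 genes per cell, the NK-like difference between the parents was 2.18 (adjusted p = 0.10) and the hybrid excess in plasmacytoid dendritic-like cells 0.84 (adjusted p = 0.84), so neither was called, and the cause was not tested. The sign changed for values that were not called and for 1 that was, the hybrid excess in plasmacytoid dendritic-like cells (0.99), which was -0.026 against the arithmetic mean. Against the mean of the parents' logs, monocyte-like cells went from -0.046 to 0.18 at these limits, 0.059 with clusters, and 0.13 with 1 more marker, NK-like cells to 0.13 with clusters, and, with single mice left out, monocyte-like cells to between -0.11 and 0.051, NK-like cells to between -0.17 and 0.079, and stem and early progenitor-like cells to between -0.028 and 0.30. The class difference of basophil or mast-like cells reached -1.06 to 0.65 with single mice left out, where NZW mouse 1 turned it.

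The replicate number as a block turned the stem and early progenitor-like value to -0.053 and brought the neutrophil-like difference of NZBWF1 from NZB (-0.57, adjusted p = 0.027) and the T-like difference from NZW (1.86) past the threshold. With single mice left out, the neutrophil-like excess of NZBWF1 over NZW was lost without NZW mouse 3 (adjusted p = 0.091) or NZBWF1 mouse 3 (adjusted p = 0.055).

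Calls summed over the classes, with a gene called in several classes counted in each, numbered 264 against the parental logs, but 530 without a filter, 434 with the block, 133 at the higher limits, and 158 to 426 with 1 mouse left out (426 without NZB mouse 1). For NZB against NZW, 5373 became 3434 with DESeq2 and 3338 at the higher limits. For NZBWF1 against NZB, 2165 became 1314 and 931, and 1059 without NZB mouse 2. For NZBWF1 against NZW, 618 became 1014 without a filter, 992 with the block, and 391 without NZW mouse 3. DESeq2 gave no adjusted p for *Apobec3* against the parental logs in B-lineage-like cells.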
